A study of Homo sapiens with 5 samples.

Results

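The transcripts described here are 42 genes of the ATF4 stress response and of amino acid supply, chosen by symbol from the 28442 gene rows of the deposited table. They were grouped by role into 7 transcription factors, 6 stress effectors and feedback genes, 11 enzymes of serine, one-carbon and amino acid metabolism, 6 amino acid transporters, and 12 tRNA synthetases and tRNA export genes. All 42 symbols were found once each. RNA came from the human cell line TOV21G, established from a clear cell carcinoma of the ovary, in a series whose title concerns ovarian cancers with ARID1A mutations and the deacetylase HDAC6. HDAC6 was repressed in 3 ways, by a hairpin against its mRNA (shHDAC6) and by ACY1215 and by CAY10603, both small-molecule inhibitors of the enzyme. The reference for the hairpin was a control hairpin (shControl), and the reference for both drugs was a vehicle, whose column is headed DMSO. Virus-infected cells were selected with puromycin, per the labels. The sources used here do not state doses, treatment times, cell density, the age of the medium at harvest or which hairpin was used. Each treatment has 1 library of total RNA, so every difference between 2 libraries below is without a replicate check.

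ATF4 is the main effector of the integrated stress response. Kinases that sense amino acid shortage, endoplasmic reticulum stress, heme deficiency or viral RNA phosphorylate the initiation factor eIF2 on its alpha subunit, which lowers protein synthesis in general while translation of the ATF4 mRNA rises. ATF4 protein, often with a C/EBP partner, then binds short elements near the promoters of genes for amino acid synthesis, amino acid transport and tRNA charging, and of the factors DDIT3 (CHOP) and ATF3. ATF4 protein was not measured here, so all values are of mRNA.

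Many of these genes carry the composite element that ATF4 and C/EBP proteins bind, and the windows below are shown because they mark which of the genes hold it next to the transcription start. RefSeq promoter windows on GRCh38.p14, which run from 250 bases before to 50 bases after each annotated start, were at hand for 36 of the 42 genes (58 windows, since some genes have several starts), and not for PSPH, SHMT2, ALDH1L2, GPT2, NUPR1 and YARS. The motif TGATGNAA, searched on both strands with overlapping matches allowed, was present in 15 of the 36 (41.7%), and in 4.46% of 27305 genes with such windows. Among genes that averaged 5 CPM or more here (CPM are counts scaled to a common library size) it was present in 2.54% of 8690. Of the listed genes at that level, 14 held it and 19 had windows without it. The list was drawn up from the ATF4 response and amino acid supply, so its high share is not a result of these libraries. Capitals mark the motif or its reverse complement, with 11 bases on either side in the direction of transcription.
ASNS, chr7:97872458-97872487, minus strand: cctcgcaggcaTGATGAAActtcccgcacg
CEBPG, chr19:33374060-33374089, plus strand: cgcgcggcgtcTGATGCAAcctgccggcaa
CHAC1, chr15:40953251-40953280, plus strand: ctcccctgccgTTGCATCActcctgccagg
SLC1A4, chr2:64989381-64989410, plus strand: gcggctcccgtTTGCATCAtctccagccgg
SLC1A5, chr19:46784893-46784922, minus strand: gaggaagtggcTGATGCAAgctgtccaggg
AARS, chr16:70289675-70289704, minus strand: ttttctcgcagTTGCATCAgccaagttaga
IARS, chr9:92293692-92293721, minus strand: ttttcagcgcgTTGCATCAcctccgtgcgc
MARS, chr12:57488053-57488082, plus strand: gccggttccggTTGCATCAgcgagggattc
GARS, chr7:30594834-30594863, plus strand: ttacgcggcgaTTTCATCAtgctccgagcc
The letters TGATGCAA or their reverse complement TTGCATCA stand in CEBPG, CHAC1, SLC1A4, SLC1A5, AARS, IARS and MARS, while ASNS has TGATGAAA and GARS has TTTCATCA. The motif starts 68 bases before the start of ASNS, 42 before that of CEBPG and 4 before that of MARS. CARS, TARS and NARS, 3 further tRNA synthetases, hold it across or after their starts, as do SLC3A2 and SLC7A1, and ATF3 has it 191 bases upstream. A match describes letters only, and no match says only that these letters are not in the window.

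Total counts lay between 43498805 (vehicle) and 57442767 (shControl). HDAC6 mRNA stood at 29.2 CPM in shHDAC6, 33.1 in ACY1215 and 48.2 in CAY10603, against 48.0 in shControl and 51.0 in vehicle, so it was lowest in the library labelled shHDAC6. Of the clear cell and epithelial markers, PAX8 was between 103 and 144 CPM in the 5 libraries, whereas KRT7 and CDH1 stayed under 1.5 CPM. Over the 8 markers the summed level was between 669.7 and 918 CPM. The 6 leukocyte markers summed to at most 5.75 CPM, with CD3E at or near 0, and the 4 endothelial markers to at most 0.517 CPM. The 6 fibroblast markers summed to 24.9, 37.5 and 36.8 CPM in shHDAC6, ACY1215 and CAY10603, against 27.0 in shControl and 26.5 in vehicle. COL1A2 made up most of those sums, LUM was at or near 0, and their part in the results below was not tested. CPM values are scaled to library size with TMM factors, and intervals at a level of 95% cover counting error only. In bulk RNA, fewer cells with a transcript and less of it per cell cannot be told apart.

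The vehicle library held the highest level of 21 of the 38 genes whose mean reached 5 CPM, and the lowest level of 0 of them. Across all 10738 genes past the same floor, vehicle was highest for 15% and lowest for 17.1%. All 4 transcription factors past the floor were highest in vehicle, as were 7 of 11 enzymes, 3 of 5 effectors, 2 of 6 transporters and 5 of 12 synthetase and export genes. At the low end, shControl had the lowest level of 14 of the 38 genes, beside 15.4% of all genes, and ACY1215 of 10, beside 30%. CAY10603 was highest for 0 of the 38, beside 13% of all genes. All 38 were below vehicle in CAY10603, as given below, which by itself fixes this count and the 0 genes lowest in vehicle.

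**Figure D1:**
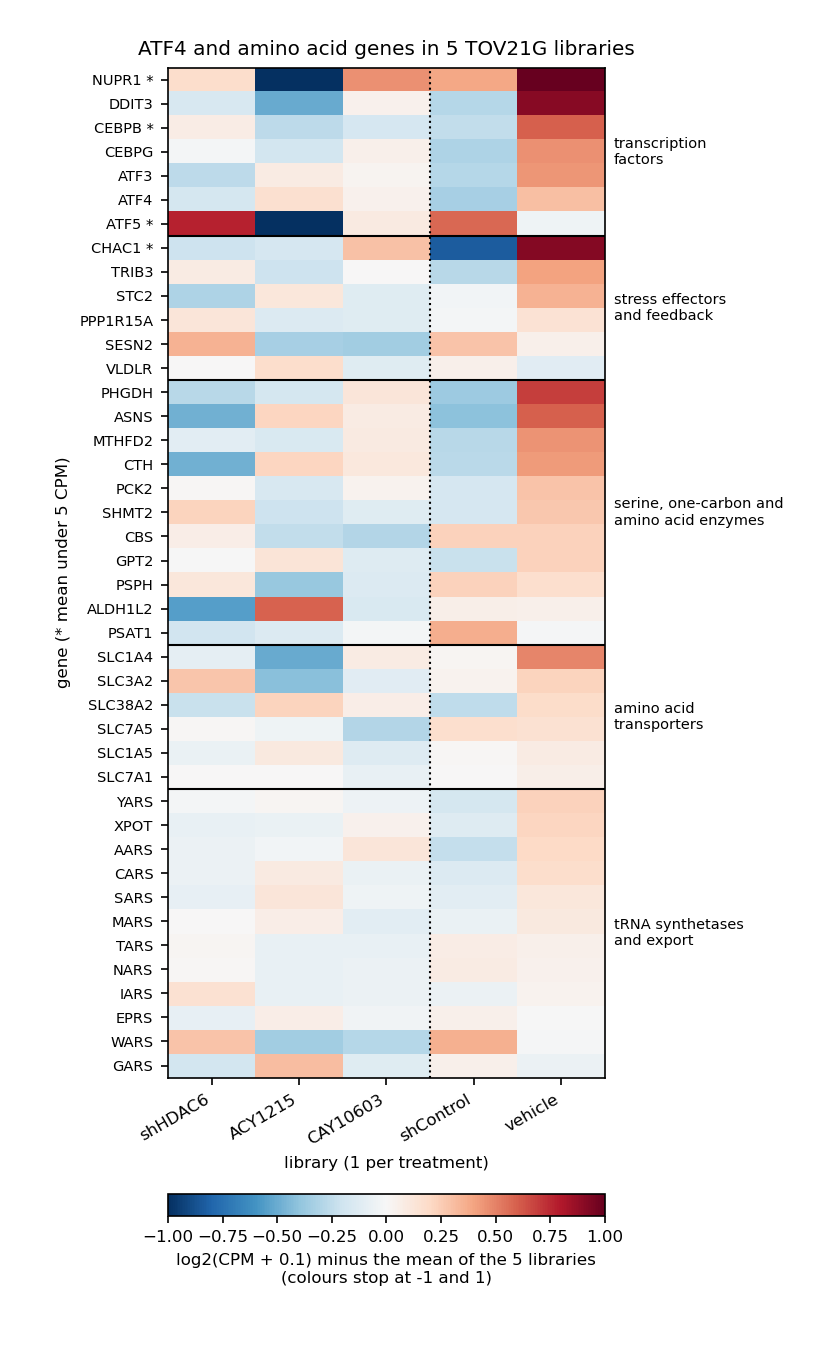
Heat map of all 42 genes (rows, grouped by role) in the 5 libraries (columns), as log2(CPM + 0.1) minus the mean of that gene over the libraries; red is above that mean, blue below, and asterisks mark the 4 genes under 5 CPM. The vehicle column is mostly red, with 21 of the 38 genes past 5 CPM at their highest there, and shControl has 14 of them at their lowest.

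Each intervention was set against its own control to ask whether repressing HDAC6 moved these genes. For CAY10603 against vehicle, all 38 genes were below vehicle, where 48.3% of all genes were. Their median log2 fold was -0.27, against 0.01 over all genes, and the range ran from -0.87 to -0.01. The counting intervals of VLDLR (-0.089 to 0.079) and PSAT1 (-0.088 to 0.075) included 0, so their direction is not settled even by counting error. For the other genes the intervals leave out 0, but with 1 library on each side they do not settle a direction either. The differences were small for most of them: 1 gene, DDIT3, was at least 1.5-fold lower (0.698% of all genes) and 0 were at least 1.5-fold higher (0.345%). At 2-fold, 0 were lower, beside 0.242% of all genes. Against shControl in place of vehicle, 18 of the 38 were lower in CAY10603, beside 51.5% of all genes, with a median of 0.03. WARS and SESN2 were then at least 1.5-fold lower (2.36% of all genes) and 0 at least 1.5-fold higher (2.98%).

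For ACY1215 against vehicle, 31 of the 38 genes were lower and 7 higher, where 50% of all genes were lower. The median log2 fold was -0.22, against 0.00 over all genes. Folds ranged from -1.42 to 0.54. At least 1.5-fold lower were 7 genes, DDIT3, SLC1A4, PHGDH, SLC3A2, CEBPG, TRIB3 and MTHFD2, which is 18.4% of the 38, beside 7.75% of all genes. The counting intervals of SLC3A2 (-0.73 to -0.56), CEBPG (-0.71 to -0.57), TRIB3 (-0.79 to -0.43) and MTHFD2 (-0.65 to -0.55) reached across 1.5-fold. None of the 38 was at least 1.5-fold higher, beside 5.86% of all genes. DDIT3 alone was 2-fold lower (3.04% of all genes). Against shControl, 14 of the 38 were lower in ACY1215, beside 53% of all genes, and the median was 0.08, so the lean depended on the control library. WARS, SESN2 and PSPH were at least 1.5-fold below shControl (5.77% of all genes) and ASNS at least 1.5-fold above it (5.23%).

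For shHDAC6 against shControl, 22 of the 38 genes were higher and 16 lower, beside 49.4% of all genes lower. The median log2 fold was 0.03, against 0.00 over all genes. ALDH1L2 alone was at least 1.5-fold lower (2.2% of all genes), and 0 were at least 1.5-fold higher (2.81%). At 2-fold, 0 were lower (0.251% of all genes). ALDH1L2 missed 1.5-fold when scaled by library size only and in the authors' FPKM. With vehicle as the comparator instead, 33 of the 38 were lower in shHDAC6, beside 47.8% of all genes, and the median was -0.21. At least 1.5-fold below vehicle were 7 of them (3.08% of all genes) and 0 above it (3.02%).

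The control libraries also differed from each other. In shControl against vehicle 26 of the 38 genes were lower, beside 47.5% of all genes, with a median log2 fold of -0.27 (0.02 over all genes). At least 1.5-fold lower were 9 of them (23.7%), beside 3.93% of all genes, and 0 were at least 1.5-fold higher (2.81%). DDIT3, PHGDH and ASNS, 3 of the 38, were at least 2-fold lower, beside 0.894% of all genes. The hairpin and drug experiments have 1 control each, so the control treatment, the experiment and its cultures cannot be told apart in this difference.

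**Figure D2:**
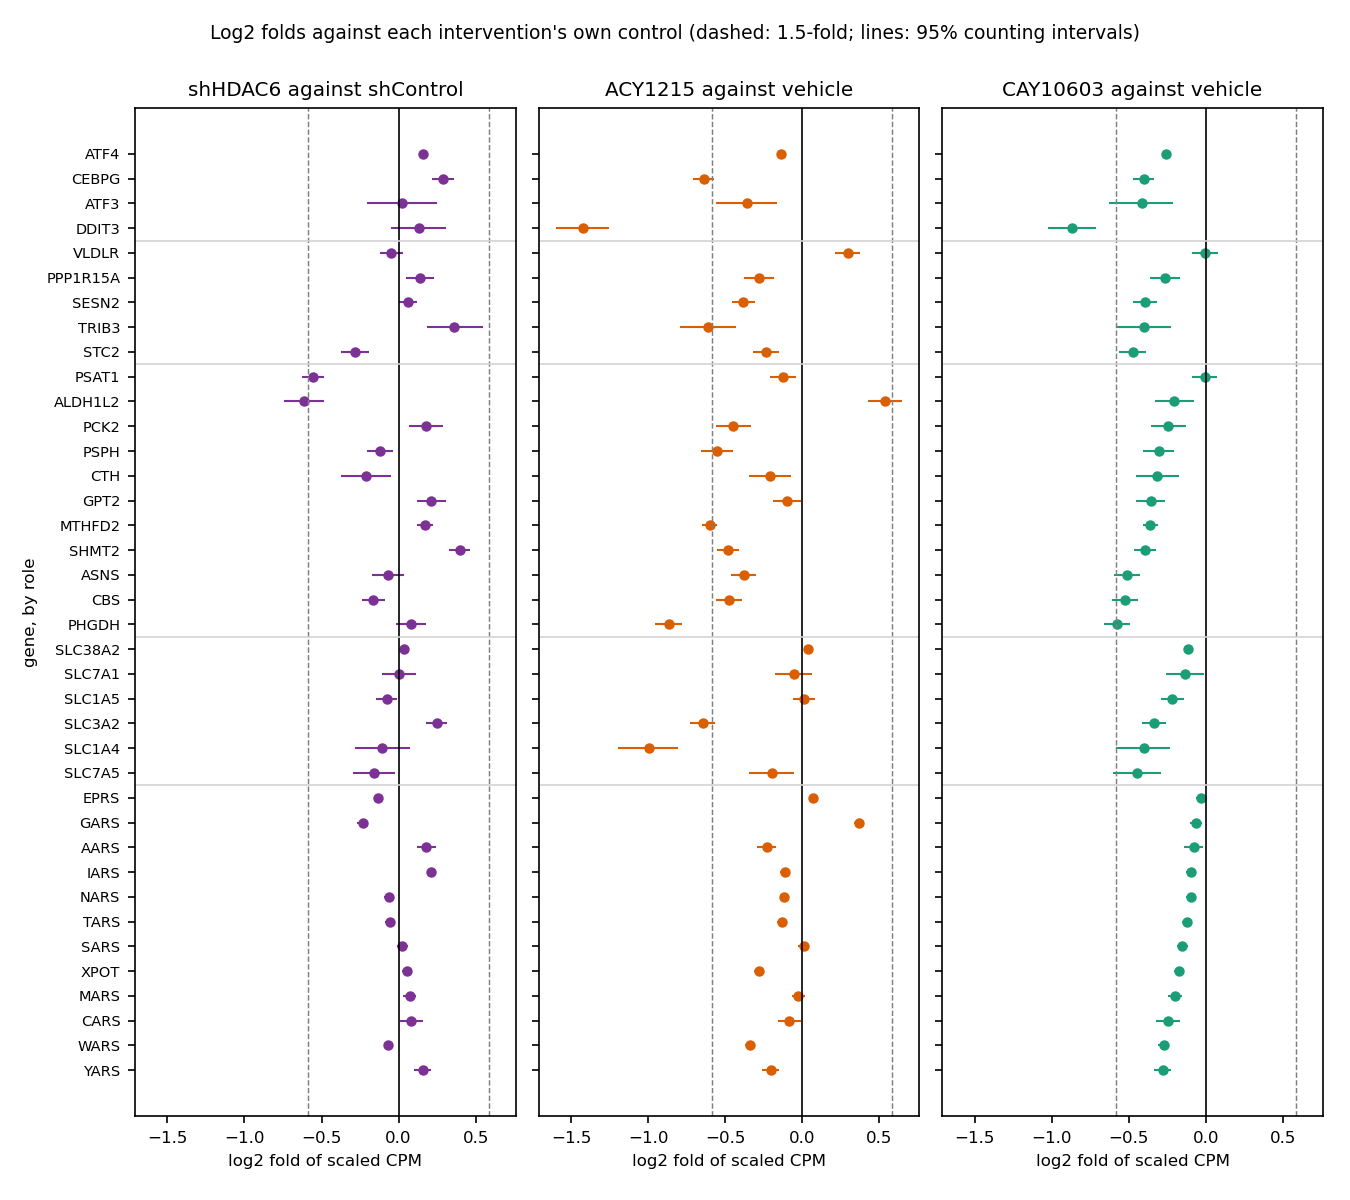
Log2 folds of scaled CPM (x axis) for the 38 genes past 5 CPM (rows, by role), 1 panel per intervention against its own control; points are folds, horizontal lines 95% counting intervals and dashed lines 1.5-fold. In the CAY10603 panel every point lies left of 0, in the ACY1215 panel 31 do, and in the shHDAC6 panel the points spread to both sides.

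**Figure D3:**
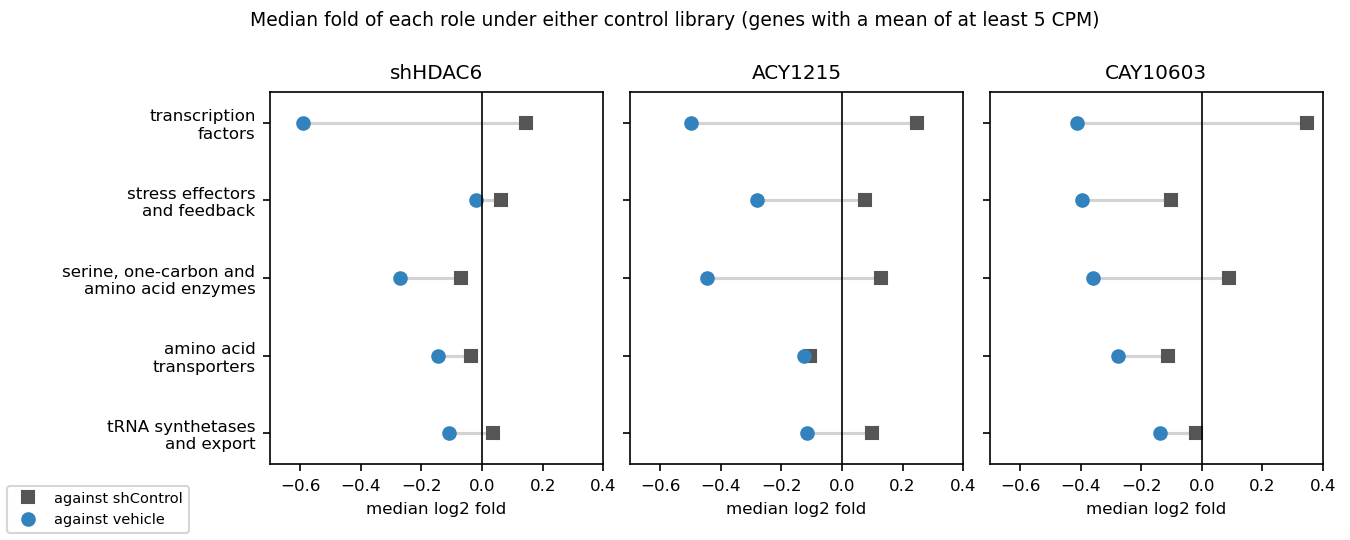
Median log2 fold (x axis) of each role (rows) in each intervention (panels), against vehicle (circles) and against shControl (squares). Transcription factors have medians of -0.59, -0.50 and -0.41 against vehicle in shHDAC6, ACY1215 and CAY10603, and of 0.14, 0.25 and 0.35 against shControl.

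Among the transcription factors, ATF4 mRNA was the most abundant per unit length, at 293, 357 and 339 FPKM, the length-scaled abundance, in shHDAC6, ACY1215 and CAY10603, against 265 in shControl and 419 in vehicle. In CPM it stood at 368 CPM in shHDAC6, 464 in ACY1215 and 426 in CAY10603, against 329 in shControl and 509.8 in vehicle. Vehicle was highest and shControl lowest, with the 3 interventions between them. Log2 folds of ATF4 against each own control were 0.16 for shHDAC6, -0.14 for ACY1215 and -0.26 for CAY10603, all under 1.5-fold, while shControl against vehicle gave -0.63.

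DDIT3 encodes CHOP, a factor that ATF4 induces and that promotes cell death in prolonged stress. It stood at 9.66 CPM in shHDAC6, 7.58 in ACY1215 and 11.1 in CAY10603, against 8.83 in shControl and 20.4 in vehicle. The vehicle level was above every other library, and those 4 lay between 7.58 and 11.1 CPM. For ACY1215 the log2 fold was -1.42 (counting interval -1.60 to -1.25), for CAY10603 -0.87 (counting interval -1.03 to -0.71) and for shHDAC6 0.13 (counting interval -0.05 to 0.31). Against shControl the folds were -0.22 for ACY1215 and 0.33 for CAY10603, so ACY1215 was below both controls and CAY10603 below vehicle alone. In the GENCODE annotation of GRCh38, DDIT3 overlaps MARS and MBD6, both on the opposite strand, and AC022506.1, a protein-coding gene on the same strand. Nothing at hand states whether counting used strand, so reads at the shared stretches cannot be told apart. MARS itself, the methionyl-tRNA synthetase, varied little, between 174 and 200.3 CPM.

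ATF3, a stress factor of the same bZIP family, stood at 5.97 CPM in shHDAC6, 7.62 in ACY1215 and 7.32 in CAY10603, against 5.88 in shControl and 9.78 in vehicle. CEBPG, a C/EBP partner of ATF4, stood at 62.1 CPM in shHDAC6, 55.4 in ACY1215 and 65.3 in CAY10603, against 50.9 in shControl and 86.4 in vehicle. Both were highest in vehicle and lowest in shControl. CEBPG had log2 folds of 0.29 for shHDAC6, -0.64 for ACY1215 and -0.40 for CAY10603, and against shControl the ACY1215 fold turned to 0.12 and the CAY10603 fold to 0.36. By the authors' FPKM the CAY10603 fold of CEBPG was -0.71, past 1.5-fold.

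**Figure D4:**
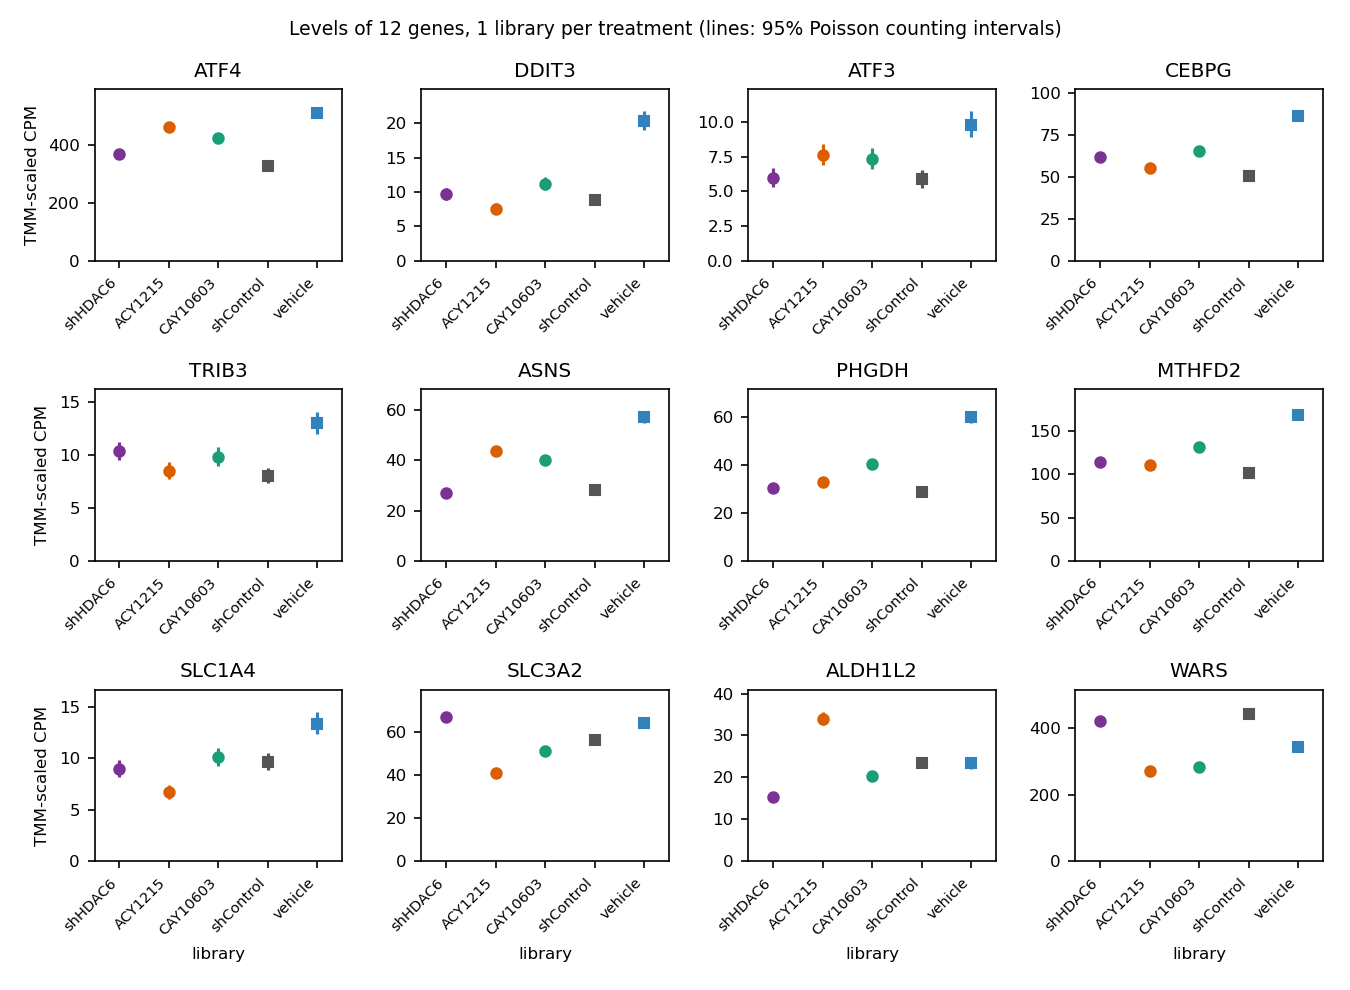
TMM-scaled CPM (y axis, from 0) of 12 genes in the 5 libraries (x axis, 1 per treatment); circles are interventions, squares controls, and vertical lines 95% Poisson counting intervals. DDIT3 and PHGDH show the vehicle library apart from the rest. ASNS shows vehicle high, the drug libraries intermediate and the hairpin libraries low. ALDH1L2 shows ACY1215 high and shHDAC6 low, and WARS shows both hairpin libraries high.

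The other 3 factors had a mean under 5 CPM. ATF5, which ATF4 induces, had 357 counts in shHDAC6, 75 in ACY1215 and 202 in CAY10603, against 339 in shControl and 170 in vehicle. Its level was lowest in ACY1215, with a log2 fold of -1.38 (counting interval -1.82 to -1.01) against vehicle and -2.004 against shControl. ATF5 overlaps NUP62 and IL4I1 on the opposite strand, and reads there cannot be told apart either. ATF5 was higher in shControl than in vehicle (log2 fold 0.62). NUPR1, a small stress-induced chromatin protein, had 42 counts in shHDAC6, 5 in ACY1215 and 48 in CAY10603, against 54 in shControl and 67 in vehicle. It was lowest in ACY1215 as well, with a log2 fold of -3.51 (counting interval -5.64 to -2.68) against vehicle and -2.86 against shControl. CEBPB, a C/EBP factor of stress and inflammation, lay between 2.62 and 4.84 CPM and was highest in vehicle, with log2 folds of 0.33 for shHDAC6, -0.87 for ACY1215 and -0.77 for CAY10603.

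Stress effectors and feedback genes had median log2 folds of 0.06, -0.28 and -0.40 in shHDAC6, ACY1215 and CAY10603 over the 5 past the floor. TRIB3, a pseudokinase that inhibits AKT and dampens ATF4, stood at 10.3 CPM in shHDAC6, 8.47 in ACY1215 and 9.80 in CAY10603, against 8.03 in shControl and 12.9 in vehicle. It was highest in vehicle and lowest in shControl. TRIB3 had log2 folds of 0.36 for shHDAC6, -0.61 for ACY1215 and -0.40 for CAY10603, and the ACY1215 fold, just past 1.5-fold, had a counting interval of -0.79 to -0.43. CHAC1, which degrades glutathione, had a mean under 5 CPM and levels of 3.85 CPM in shHDAC6, 3.95 in ACY1215 and 5.48 in CAY10603, against 2.46 in shControl and 8.49 in vehicle. Its vehicle level stood above the other 4 libraries and its shControl level below them. Log2 folds of CHAC1 were 0.63 for shHDAC6, -1.10 for ACY1215 and -0.63 for CAY10603, with -1.77 for shControl against vehicle, the widest gap between the controls among the 42 genes.

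STC2, a secreted glycoprotein hormone, stood at 33.2 CPM in shHDAC6, 44.7 in ACY1215 and 37.8 in CAY10603, against 40.3 in shControl and 52.6 in vehicle, which placed vehicle highest and shHDAC6 lowest. Its log2 folds were -0.28 for shHDAC6, -0.23 for ACY1215 and -0.47 for CAY10603. VLDLR, a lipoprotein receptor, stood at 54.3 CPM in shHDAC6, 61.2 in ACY1215 and 49.7 in CAY10603, against 56.2 in shControl and 49.9 in vehicle, and ACY1215 was the highest library. VLDLR had the log2 fold 0.29 in ACY1215, where 7 of the 38 genes were above vehicle. SESN2, a leucine sensor that restrains mTORC1, had a different order, with the hairpin libraries high (82.7 CPM in shHDAC6 and 79.2 in shControl) and all drug-experiment libraries lower (51.6 in ACY1215, 51.1 in CAY10603 and 67.2 in vehicle). Log2 folds of SESN2 were -0.38 and -0.40 against vehicle and -0.62 and -0.63 against shControl for ACY1215 and CAY10603, so both drugs were lower against either control. PPP1R15A, the stress-induced subunit that directs eIF2 dephosphorylation, was between 31.9 and 38.8 CPM.

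Enzymes of serine, one-carbon and amino acid metabolism had median log2 folds of -0.07, -0.45 and -0.36 in shHDAC6, ACY1215 and CAY10603. PHGDH, the first enzyme of serine synthesis from glycolysis, stood at 30.4 CPM in shHDAC6, 32.8 in ACY1215 and 40.1 in CAY10603, against 28.7 in shControl and 59.8 in vehicle. Vehicle was apart from the 4 other libraries, whose levels were between 28.7 and 40.1 CPM. PHGDH had log2 folds of -0.87 (counting interval -0.96 to -0.78) for ACY1215, -0.57 (counting interval -0.66 to -0.49) for CAY10603 and 0.08 (counting interval -0.02 to 0.18) for shHDAC6. Its successors in the pathway did not follow the same order. PSAT1, the phosphoserine aminotransferase, stood at 46.7 CPM in shHDAC6, 48.3 in ACY1215 and 52.5 in CAY10603, against 68.6 in shControl and 52.7 in vehicle. Here shControl was the highest library and the remaining 4 were close together. The PSAT1 log2 folds were -0.55 for shHDAC6, -0.13 for ACY1215 and -0.01 for CAY10603. PSPH, the phosphatase that completes serine synthesis, had -0.12 for shHDAC6, -0.55 for ACY1215 and -0.31 for CAY10603, and was lower in ACY1215 than in either control.

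Mitochondrial one-carbon enzymes act on serine after its synthesis. SHMT2, which turns serine into glycine, stood at 79.3 CPM in shHDAC6, 58.7 in ACY1215 and 62.4 in CAY10603, against 60.3 in shControl and 82.0 in vehicle. It was high in vehicle and shHDAC6 and lower in the other 3. SHMT2 had log2 folds of 0.40 for shHDAC6, -0.48 for ACY1215 and -0.39 for CAY10603, and the shHDAC6 fold was 0.21 by the authors' FPKM. MTHFD2, a mitochondrial folate dehydrogenase typical of proliferating cells, stood at 115 CPM in shHDAC6, 111 in ACY1215 and 131 in CAY10603, against 102 in shControl and 169 in vehicle. Vehicle was highest, and the other libraries were between 102 and 131 CPM. Its log2 folds were 0.17 for shHDAC6, -0.60 for ACY1215 and -0.36 for CAY10603, with the ACY1215 counting interval of -0.65 to -0.55 reaching across 1.5-fold. ALDH1L2, a mitochondrial formyltetrahydrofolate dehydrogenase, stood at 15.4 CPM in shHDAC6, 34.0 in ACY1215 and 20.3 in CAY10603, against 23.5 in shControl and 23.4 in vehicle. The controls were alike, ACY1215 was above them and shHDAC6 below them. For ALDH1L2 the log2 fold was 0.54 (counting interval 0.43 to 0.65) in ACY1215 and -0.61 (counting interval -0.74 to -0.49) in shHDAC6, and against the other control these were 0.53 and -0.61.

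ASNS, which makes asparagine and is a standard readout of ATF4, stood at 26.9 CPM in shHDAC6, 43.7 in ACY1215 and 39.9 in CAY10603, against 28.3 in shControl and 56.9 in vehicle. Both hairpin libraries were low, both drug libraries intermediate and vehicle high. ASNS had log2 folds of -0.07 for shHDAC6, -0.38 for ACY1215 and -0.51 for CAY10603, while against shControl ACY1215 had 0.63 and CAY10603 0.50. CTH and CBS catalyse the steps of transsulfuration, which makes cysteine from homocysteine. CBS stood at 50.9 CPM in shHDAC6, 40.9 in ACY1215 and 39.6 in CAY10603, against 57.0 in shControl and 56.9 in vehicle. Its controls were alike and both drug libraries were below them, with shHDAC6 between. The log2 folds of CBS were -0.16 for shHDAC6, -0.48 for ACY1215 and -0.52 for CAY10603, and -0.48 and -0.53 for ACY1215 and CAY10603 against shControl. CTH ranged from 10.6 CPM in shHDAC6 to 19.9 in vehicle. GPT2, the mitochondrial alanine aminotransferase, ranged from 32.2 CPM in shControl to 44.0 in vehicle, and PCK2, mitochondrial phosphoenolpyruvate carboxykinase, from 22.0 in shControl to 30.1 in vehicle.

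The amino acid transporters had medians of -0.04, -0.13 and -0.28 in shHDAC6, ACY1215 and CAY10603. SLC1A4, a carrier of small neutral amino acids, stood at 8.96 CPM in shHDAC6, 6.70 in ACY1215 and 10.1 in CAY10603, against 9.64 in shControl and 13.4 in vehicle. ACY1215 was the lowest library and vehicle the highest. SLC1A4 had log2 folds of -0.99 (counting interval -1.19 to -0.81) in ACY1215, -0.40 in CAY10603 and -0.11 in shHDAC6, and ACY1215 was also below shControl (log2 fold -0.52). SLC3A2, the heavy chain (4F2hc) shared by several heterodimeric exchangers, stood at 66.8 CPM in shHDAC6, 41.0 in ACY1215 and 50.9 in CAY10603, against 56.3 in shControl and 64.1 in vehicle. ACY1215 was lowest and shHDAC6 highest. Its log2 folds were 0.25 for shHDAC6, -0.64 for ACY1215 and -0.33 for CAY10603, and -0.45 for ACY1215 against shControl. SLC7A5, the large neutral amino acid light chain that pairs with SLC3A2, varied less, between 12.6 CPM in CAY10603 and 17.4 in shControl, and its reads can be split with the related rows SLC7A5P1 and SLC7A5P2. SLC38A2, a sodium-coupled carrier of glutamine and other neutral amino acids, stood at 458 CPM in shHDAC6, 623 in ACY1215 and 559 in CAY10603, against 447 in shControl and 606 in vehicle, so both hairpin libraries were below the 3 of the drug experiment. SLC1A5, a glutamine carrier, and SLC7A1, a carrier of cationic amino acids, had all their log2 folds against their own controls between -0.22 and 0.01.

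Genes of tRNA charging and export had median log2 folds of 0.04, -0.11 and -0.14 in shHDAC6, ACY1215 and CAY10603. At least 1.5-fold apart from the own control were 0 of 12 in any intervention. Of all genes, 2.2% were lower and 2.81% higher at that size in shHDAC6, 7.75% and 5.86% in ACY1215, and 0.698% and 0.345% in CAY10603. For 12 genes, a count of 0 is near these shares. All 12 were below vehicle in CAY10603, beside 48.3% of all genes, with folds between -0.28 and -0.03. GARS, glycyl-tRNA synthetase, stood at 231 CPM in shHDAC6, 325 in ACY1215 and 241 in CAY10603, against 272 in shControl and 252 in vehicle, with ACY1215 above all other libraries. Its ACY1215 log2 fold was 0.37 (counting interval 0.33 to 0.40), and 0.26 against shControl. EPRS, the bifunctional glutamyl-prolyl enzyme, stood at 356 CPM in shHDAC6, 395 in ACY1215 and 369 in CAY10603, against 389.9 in shControl and 377 in vehicle, a narrow spread in which ACY1215 and shControl were highest. EPRS had log2 folds of -0.13 for shHDAC6, 0.07 for ACY1215 and -0.03 for CAY10603. In ACY1215 the folds of EPRS, SARS, SLC38A2 and SLC1A5 were between 0.01 and 0.07. Those of MARS, SLC7A1, CARS and GPT2 were between -0.097 and -0.025. All of these are smaller than the 0.10 by which scaling on library size alone lowered the median of all genes in this pair (-0.10). No direction is given for these genes, although the counts of any size above include them.

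WARS, tryptophanyl-tRNA synthetase, which interferon also induces, stood at 421 CPM in shHDAC6, 271 in ACY1215 and 283 in CAY10603, against 442 in shControl and 342 in vehicle. Both hairpin libraries were above vehicle and both drug libraries below it. WARS had log2 folds of -0.07 for shHDAC6, -0.34 for ACY1215 and -0.27 for CAY10603, and -0.71 and -0.64 for ACY1215 and CAY10603 against shControl. AARS, CARS and YARS, synthetases for alanine, cysteine and tyrosine, were highest in vehicle and lowest in shControl, with shControl-against-vehicle log2 folds of -0.44, -0.32 and -0.40. XPOT, which exports tRNAs from the nucleus, had -0.34 there. NARS and TARS, for asparagine and threonine, and IARS, for isoleucine, had all 3 folds against their own controls within -0.13 and 0.21.

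The genes with the motif had smaller median folds against vehicle than those without it, a description with no test. In CAY10603 against vehicle the median log2 fold was -0.21 for the 14 motif genes past the floor and -0.27 for the 19 genes whose windows lacked it. In ACY1215 the medians were -0.12 and -0.28, and in shControl against vehicle -0.18 and -0.34. Below vehicle in CAY10603 were 14 of the 14 and 19 of the 19, beside 48.3% of all genes. In ACY1215 there were 12 of 14 and 15 of 19 (50% of all genes), and in shControl 11 of 14 and 12 of 19 (47.5%). The share of genes below vehicle was therefore not smaller with the motif. Of the 15 motif genes, 7 are tRNA synthetases, a role with small median folds, and motif and role were not separated.

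A pooled fit over the 5 libraries asked which genes moved with repressed HDAC6 over all interventions, with experiment type (hairpin or drug) as a covariate. None of the 41 genes tested passed at an adjusted p under 0.05 in edgeR's quasi-likelihood test, as was the case for all 13449 genes (0% lower and 0% higher). At an unadjusted p under 0.05 there was 1 of the 41, CBS, which was lower. CBS did not pass that limit with DESeq2, without CAY10603 or without vehicle, where 0 of the 42 genes did. Without shHDAC6, and likewise without shControl, 4 passed it (CBS, CEBPG, DDIT3 and PHGDH), and without ACY1215 3 did (ALDH1L2, CBS and STC2). Of all genes 100 passed that limit (0.372% lower and 0.372% higher), with 112 by DESeq2 and 122 by limma-voom. For CBS the pooled log2 fold was -0.36 ± 0.15 (SE), for DDIT3 -0.61 ± 0.32, for PHGDH -0.38 ± 0.21 and for ATF4 -0.05 ± 0.16, each at an edgeR adjusted p of 1.00. The pooled log2 fold was below 0 for 39 of the 41, beside 49.6% of all genes. The vehicle library is the control of 2 of the 3 interventions in this fit. Without it the drugs have no control of their experiment type, so the fold is that of shHDAC6 against shControl alone. It was then -0.16 for CBS, 0.13 for DDIT3 and 0.08 for PHGDH. Without shHDAC6, or without shControl, the fold is in either case that of the drugs against vehicle. NUPR1 was under the count filter of this fit.

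Other genes of the pathway, from lists outside the 42, had 0 members called in the pooled edgeR test (0 of 82 tested in 6 lists, adjusted p under 0.05, and also 0 at an unadjusted p under 0.05). Among 11 further ATF4 targets past the floor, 8 were lower in CAY10603 than in vehicle (median -0.13), 6 were lower in ACY1215 (-0.09) and 7 were lower in shHDAC6 than in shControl (-0.10). Of all genes, 48.3%, 50% and 49.4% were lower in these pairs, in the same order. In shControl against vehicle 5 of the 11 were lower, with a median of 0.02. Vehicle was the highest library for 3 of the 11 and the lowest for 2. SLC7A11, the cystine carrier that also pairs with SLC3A2, stood at 11.3 CPM in shHDAC6, 19.0 in ACY1215 and 19.6 in CAY10603, against 11.1 in shControl and 34.4 in vehicle. Vehicle was highest, the drug libraries were alike and lower, and the hairpin libraries were lowest. SLC7A11 had log2 folds of 0.02 for shHDAC6, -0.86 for ACY1215 and -0.81 for CAY10603, and both drug folds were past 1.5-fold. GDF15, a stress cytokine that p53 also induces, stood at 158 CPM in shHDAC6, 199 in ACY1215 and 124 in CAY10603, against 136 in shControl and 118 in vehicle. It was highest in ACY1215, with a log2 fold of 0.76 there.

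The 17 eIF2 kinases, eIF2 and eIF2B subunits and regulators had medians of -0.10, 0.06 and 0.02 in shHDAC6, ACY1215 and CAY10603, with 0 at least 1.5-fold apart in any. At that size 2.2% of all genes were lower and 2.81% higher in shHDAC6, 7.75% and 5.86% in ACY1215, and 0.698% and 0.345% in CAY10603. EIF2AK4 (GCN2), the kinase that senses uncharged tRNA, stood at 210.3 CPM in shHDAC6, 283 in ACY1215 and 245 in CAY10603, against 262 in shControl and 227 in vehicle. The 12 other cytosolic synthetases and complex partners had medians of 0.00, -0.02 and 0.01, and the 17 mitochondrial ones 0.08, -0.08 and 0.00. In CAY10603 6 of 12 and 8 of 17 were below vehicle, beside 48.3% of all genes. AIMP1, a scaffold of the synthetase complex, was at least 1.5-fold lower in shHDAC6 (-0.61), beside 2.2% of all genes. MARS2, the mitochondrial methionyl enzyme, was at least 1.5-fold higher in ACY1215 (0.69), beside 5.86% of all genes.

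Among folate and glycine genes outside the list, 7 of 11 were above vehicle in ACY1215 (median 0.13) and 4 were at least 1.5-fold below it, beside 7.75% of all genes. In CAY10603 8 of 11 were above vehicle (median 0.04), and in shHDAC6 3 of 11 were above shControl (median -0.10). Of all genes, 50% were below vehicle in ACY1215, 48.3% below vehicle in CAY10603 and 49.4% below shControl in shHDAC6. Against shControl, 3 of the 11 were at least 1.5-fold lower in ACY1215, beside 5.77% of all genes. The lowest fold of the 11 in ACY1215 against vehicle was -1.28. TYMS, the thymidylate synthase of DNA synthesis, was among the 4 genes lower against vehicle. Its log2 fold against vehicle was -0.999 in ACY1215 and 0.15 in CAY10603. SHMT1, the cytosolic counterpart of SHMT2, had -1.001 in ACY1215 and -0.45 in CAY10603. Of 9 other amino acid transporters past the floor, 4 were at least 1.5-fold higher in ACY1215 than in vehicle, beside 5.86% of all genes, SLC36A1 (1.05), SLC1A1 (0.88), SLC6A6 (0.75) and SLC36A4 (0.64), and SLC36A4 was so in CAY10603 (0.65), beside 0.345% of all genes. Against shControl, 0 of the 9 were at least 1.5-fold higher in either drug, beside 5.23% of all genes in ACY1215 and 2.98% in CAY10603. At that size 1 was lower in ACY1215, beside 5.77% of all genes. In CAY10603 8 of the 9 were below shControl, beside 51.5% of all genes, so these differences depended on the control library. Vehicle was the lowest library for 6 of these 9 transporters and the highest for 0 of them, whereas it was highest for 21 of the 38 genes above. In the remaining pathway lists it was highest for 9.09% (folate and glycine genes) to 27.3% (further ATF4 targets), beside 15% of all genes. Since doses are not known here, the drugs' values stand side by side without a comparison between drugs.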

How the data were processed

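Total RNA of TOV21G cells, 1 library per treatment and 5 in all, was analysed from 1 gene table. The labels' protocols give Trizol for isolation and a stranded kit for total RNA. The deposited table gives expected counts per gene as whole numbers, headed count per the file headers, and the authors' FPKM, which divide by gene length and depth. The submitters' processing notes list RSEM 1.2.3, edgeR without a version and hg19, with no role for any. For the aligner, annotation version and strand setting, nothing is stated in the sources at hand. Columns of unknown samples numbered 0, and 2 blank rows were left out.

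Counts were scaled with TMM factors. Single pairs are log2 folds of CPM (prior count 2) over genes averaging 5 CPM or more, and carry no test. Counting intervals are exact Poisson (levels) and exact binomial (folds). The pooled fit used edgeR 4.0.16 in R 4.3.3 (robust quasi-likelihood F test, Benjamini-Hochberg adjustment at 0.05, a filter of 1 CPM in 2 libraries, experiment type as covariate), was tested on simulated data, and had limma-voom 3.58.1 and DESeq2 1.42.0 as alternatives. FPKM folds used a pseudocount of 0.1. Control replicates 1 and 2 are shControl and vehicle, and repressed HDAC6 replicates 1, 2 and 3 are shHDAC6, ACY1215 and CAY10603. Rows of related genes (SLC7A5P1, SLC7A5P2, MTHFD2L, NUPR1L, TARSL2) can share reads with the genes they resemble. Overlap with a protein-coding gene on the opposite strand is not limited to DDIT3 and ATF5. It also holds, among others, for ALDH1L2 (C12orf45), SHMT2 (NDUFA4L2), MTHFD2 (SLC4A5) and WARS (WDR25). Nothing says that libraries came from repeated cultures, so p-values measure the spread between these libraries. The pooled fit treats the 3 interventions as 1 group, so that spread includes differences between treatments and is not a spread of replicates. Genes given in full were those at least 1.5-fold apart in an intervention, the 3 highest and 3 lowest of each, and ATF4, DDIT3 and ASNS. ATF3, SESN2, WARS and the 4 genes under 5 CPM were added after their values were seen. The members and lists were chosen with earlier results of these data known, and the motif was searched after the folds were seen. Some genes of the marker and pathway lists are not reported here.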

Additional observations from a re-analysis of the deposited data

How the results depend on the processing

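The choice of control library changed the results most. With the other control the median log2 fold of the 38 genes turned to -0.21 for shHDAC6, 0.080 for ACY1215 and 0.026 for CAY10603, and the genes below that control numbered 33, 14 and 18 of 38 (an alternative chosen after seeing the data, as were the other alternatives for counts of any size and for the vehicle rank). Genes at least 1.5-fold lower were then 7, 3 and 2, and 1 was higher in ACY1215. With the mean of both controls the medians were -0.091, -0.088 and -0.11, the genes below it 30, 24 and 32 (48%, 51.3% and 49.1% of all genes), and those 1.5-fold lower 1, 2 and 0. Scaling by library size gave an ACY1215 median of -0.32 (-0.10 over all genes), and 0 and 2 genes 1.5-fold lower in shHDAC6 and CAY10603. The authors' FPKM gave an ACY1215 median of -0.34 (-0.10 over all genes), and 0 and 3 genes lower in shHDAC6 and CAY10603. A floor of 1 CPM, which lets 3 more genes in, gave 1 higher in shHDAC6 and 3 lower in CAY10603. At 2-fold, 0, 1 and 0 were lower. Vehicle was the highest library for 21 to 27 of the 38 genes, and for 14.9% to 21.6% of all genes, with TMM, RLE, library size or FPKM. All 38 were below vehicle in CAY10603 with TMM, RLE, library size and FPKM, beside 48.3%, 47.7%, 62% and 61.7% of all genes. The cause of these shifts was not tested beyond the settings' own construction.

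The pooled count of 0 genes held with DESeq2, limma-voom, RLE factors, no count filter and no covariate, and ranged from 0 to 4 when 1 library was left out, 3 without vehicle (control replicate 2) and 4 without ACY1215 (repressed HDAC6 replicate 2), with 0 of the 42 genes among them. Leaving out each library in turn gave pooled log2 folds that ranged from -0.50 to -0.16 for CBS, -1.12 to 0.13 for DDIT3, -0.20 to 0.16 for ATF4, -0.50 to 0.36 for TRIB3, -0.71 to 0.081 for PHGDH, -0.44 to 0.40 for SHMT2, -0.48 to 0.17 for MTHFD2, -0.61 to 0.21 for ALDH1L2, -0.48 to 0.25 for SLC3A2, -0.52 to 0.29 for CEBPG, -0.047 to 0.15 for VLDLR, -0.23 to 0.17 for GARS and -0.13 to 0.020 for EPRS. Some of these folds are single contrasts given above. Without vehicle they come from shHDAC6 against shControl alone, and without shHDAC6 or shControl from the drugs against vehicle. Without experiment type in the model the fold of GARS was 0.022. Leaving out a library of a single pair leaves no contrast. No paired analysis was possible because the labels number no replicates; they tie libraries by experiment type alone, which the pooled fit holds as a covariate. Depth limits ATF5, CEBPB, CHAC1 and NUPR1 most.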

Other observations

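The authors' FPKM and the counts gave different folds for CEBPG. Its CAY10603 log2 fold against vehicle was -0.71 by FPKM and -0.40 by counts, and after removal of the difference common to all genes 0.792% of genes past the floor had a gap of that size. In shHDAC6 against shControl CEBPG had 0.08 by FPKM and 0.29 by counts, SHMT2 had 0.21 and 0.40, and NARS had -0.21 and -0.07. FPKM also depends on the length used for each gene, and whether the transcript mix of these genes moved was not tested.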
